A study of Mus musculus with 3 samples.

Results

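Cannabidiol (CBD) is a plant cannabinoid that acts weakly on the classical cannabinoid receptors and more strongly on a scattered group of other proteins. The 8 genes described here include Cnr2, which encodes a classical receptor. The others encode the receptors Gpr55, Gpr18 and Adora2a, the ion channel Trpv2, the nucleoside transporter Slc29a1, the enzyme Faah and the mitochondrial channel Vdac1. All 8 were taken by gene symbol, for proteins that bind CBD or carry its known effects. They are 8 of the 56980 genes listed in the deposited tables, of which 37313 had at least 1 UMI (unique molecular identifier, a count of 1 captured RNA molecule) in the cells kept.

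Endogenous cannabinoids are lipids made on demand in cell membranes, sensed by receptors coupled to G proteins, and broken down by hydrolases. In bone marrow the cannabinoid receptor of immune cells is found on B cells and myeloid cells, and its lipid ligands affect the movement of cells out of the marrow. Adenosine is a separate signal that builds up around stressed cells, acts on its own receptors and is cleared by nucleoside transporters, which CBD can inhibit.

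The study asked what CBD does to the marrow of irradiated mice, and sequenced single bone marrow cells of male C57BL/6 mice, whose ages are not given. The Control library came from mice without irradiation, the IR library from mice given 6.0 Gy of gamma rays and solvent (soybean oil with DMSO), and the IR+CBD library from mice given the same dose with intraperitoneal CBD before and after it. All 3 libraries are from day 14 and each pools 3 mice, so animals cannot be told apart. Lineage-negative Kit-positive, lineage-negative Kit-negative and lineage-positive cells were sorted and remixed 5:4:1, so cell numbers here are not those of marrow, and the label of the IR+CBD library names only the CBD treatment, with the irradiation stated for the series.

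Control was deposited with 199383228 UMIs over 12200 barcodes, IR with 206932522 UMIs over 11951 and IR+CBD with 177806843 UMIs over 11884. Cells with 200 or more genes and at most 5% mitochondrial UMIs were kept, which left 10674, 10345 and 10273 cells with a median of 12480, 14211 and 12502 UMIs. Control and IR shared 35 barcode sequences, Control and IR+CBD 41, and IR and IR+CBD 51, at most 0.429% of a library. Levels are UMIs of a gene per 1000000 UMIs of the same cells (CPM) with exact Poisson 95% intervals, exact Clopper-Pearson 95% intervals were computed for the positive shares over all cells, and ratios of CPM carry exact conditional binomial 95% intervals. With 1 library per group there is no replicate, so the intervals describe error from counting alone, groups were not tested against each other, and a difference between libraries cannot be told apart from one between pools of mice or between preparations. In summed cells, fewer cells of a type and less RNA per cell cannot be told apart either, and ratios inside gates are therefore given beside those over all cells. CPM values of different genes are not compared with each other.

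Cell types were approached with 7 gates on raw UMIs: Mpo of at least 5 (granulocyte and monocyte progenitors), Klf1 of at least 2 (erythroid cells), Cd79a of at least 2 (B lineage), Retnlg of at least 5 (neutrophils), Siglech of at least 3 (plasmacytoid dendritic cells), Csf1r with Ccr2 of at least 1 each (monocytic cells) and Cd34 with Adgrl4 of at least 1 each (stem and progenitor cells). For the Mpo, Klf1, Cd79a, Retnlg and Siglech gates, 4 of 4 markers that the gate does not use were higher there than in any other of the 7, in each library. The Csf1r and Ccr2 gate had 3, 2 and 3 of its 4 markers highest in Control, IR and IR+CBD, and the Cd34 and Adgrl4 gate had 4 of 5 in each. The exceptions were Cd68 in all libraries, Ly6c2 in IR and Flt3 in all libraries, each higher in the Siglech gate. The 2-gene gates overlapped strongly with the Mpo gate: of 3116, 1952 and 1970 Cd34 and Adgrl4 cells, 2149, 1706 and 1643 were also Mpo cells. The gates use absolute counts and so also select deep cells, with median depths from 3416.5 UMIs in the Cd79a gate of IR+CBD to 42567 UMIs in the Klf1 gate of IR. For that reason shares of positive cells are also computed with every cell thinned to 2000 UMIs, leaving out the 401, 296 and 452 shallower cells.

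The sizes of the gates differed between libraries. The Klf1 gate held 586, 1446 and 1181 cells of Control, IR and IR+CBD, or 12.5%, 31.3% and 27.7% of all UMIs. The Siglech gate held 273, 46 and 79 cells, and the Cd34 and Adgrl4 gate 48.7%, 33.2% and 32.1% of the UMIs. The Cd79a gate (3524, 4072 and 3456 cells) and the Retnlg gate (1004, 1076 and 1215 cells) were closer to even. A further 10 gates describe smaller populations. Of these, the gates on Hlf with Mecom, on Jchain with Tnfrsf17 and on Stab2 with Cdh5, and the sum of cells outside the T and NK gates, were chosen after values had been seen.

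Of the 8 genes, 7 had at least 200 UMIs in both libraries of each comparison together, and Gpr55 did not. Against Control, 2 of these 7 were past 1.5-fold in IR, Adora2a and Faah, both lower. Across all 15828 genes measured in that comparison 11.0% were past 1.5-fold, 4.02% higher and 7.0% lower. Between IR+CBD and IR, 0 of 7 were past 1.5-fold, where 2.46% of 15520 genes were, 0.973% higher and 1.49% lower. Over all cells, Adora2a and Faah were also the genes past 1.5-fold in IR+CBD against Control. That comparison shares its libraries with the others, and in it 8.62% of 15616 genes were past that fold, 2.66% higher and 5.96% lower. At 1.2-fold, 4 of 7 passed in IR over Control (32.3% of all genes) and 1 of 7 in IR+CBD over IR (12.7%). At 2-fold, 1 of 7 passed in the first (4.22%) and 0 of 7 in the second (0.754%). The median log2 ratio of the 7 was 0.03 in IR over Control (-0.05 over all genes), 0.05 in IR+CBD over IR (0.00) and 0.01 in IR+CBD over Control (-0.04). With so few genes, these counts are a description of the list and do not set it apart from other genes.

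**Figure D1:**
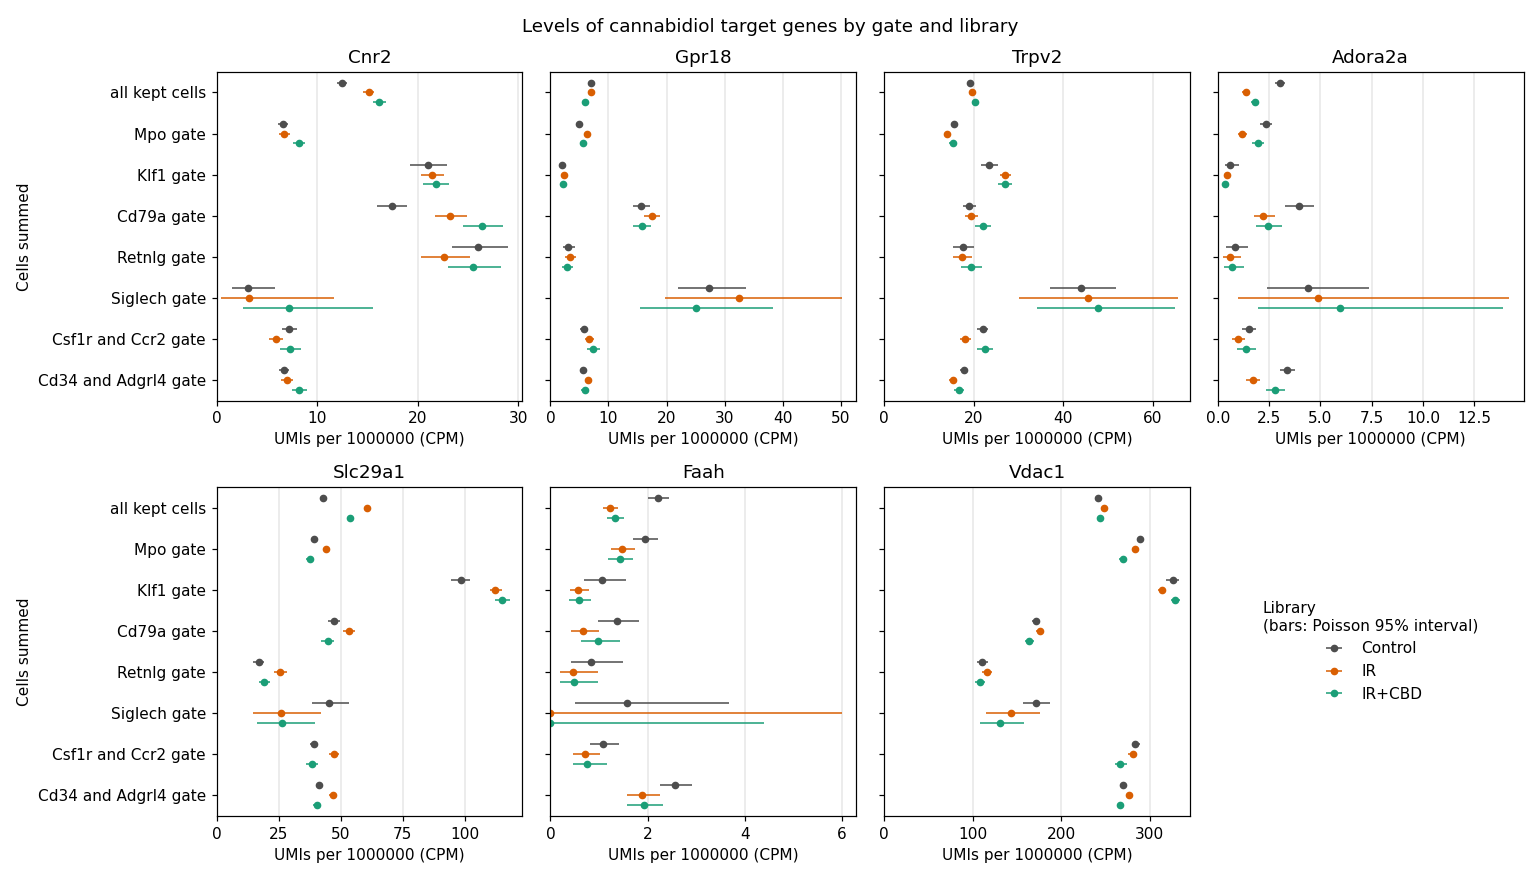
CPM (x axis, linear, starting at 0) of 7 genes in all kept cells and in the 7 gates (y axis), for Control, IR and IR+CBD, with points for the library values and bars for Poisson 95% intervals; Gpr55 is left out for its 73 UMIs. Slc29a1 is highest in the Klf1 gate (98.3, 112 and 115) and Trpv2 in the Siglech gate (44.0, 45.5 and 47.7) of each library.

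Cnr2 (ENSMUSG00000062585) encodes the cannabinoid receptor typical of immune cells. Its level over all cells was 12.5 CPM (12.0 to 13) in Control, 15.2 CPM (14.6 to 15.7) in IR and 16.2 CPM (15.6 to 16.8) in IR+CBD. Control was the lowest library and both irradiated libraries were above it, with intervals clear of its own. IR exceeded Control by a ratio of 1.22 (1.15 to 1.28), and IR+CBD exceeded IR by 1.07 (1.02 to 1.13). At least 1 Cnr2 UMI was found in 16.1%, 19.3% and 18.8% of cells, or 3.93%, 4.56% and 4.75% after thinning.

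Among the gates, Cnr2 was high in neutrophils, erythroid cells and the B lineage and low elsewhere. The Retnlg gate had 26.0, 22.6 and 25.5 CPM in Control, IR and IR+CBD, the Klf1 gate 21, 21.4 and 21.8 CPM, and the Cd79a gate 17.4, 23.2 and 26.4 CPM. The lowest of these 3 gates exceeded the highest of the other 4 by ratios of 2.41, 3.06 and 2.65 in the same order of libraries. In Control the order Retnlg, Klf1, Cd79a had each step beyond its interval. In IR these 3 gates did not differ, and in IR+CBD the Cd79a and Retnlg gates did not differ from each other and both exceeded the Klf1 gate. The Csf1r and Ccr2, Cd34 and Adgrl4 and Mpo gates lay between 5.87 and 8.23 CPM, and the steps between these gates were within their intervals in each library. Among cells in exactly 1 gate, however, the Csf1r and Ccr2 gate had 29.8, 16.0 and 19.4 CPM.

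The Siglech gate came last for Cnr2, beyond the interval of that step in Control and not in IR or IR+CBD, with 10, 2 and 6 UMIs and a positive share of 3.66%, 4.35% and 5.06% at median depths of 7722.0, 9803.0 and 7465.0 UMIs. In the Retnlg gate, at median depths of 8769.5, 9707.5 and 8823.0 UMIs, the shares were 25.6%, 22.6% and 23.0%. After thinning they were 6.60%, 5.10% and 5.79% in the Retnlg gate against 0.509%, 0.229% and 0.832% in the Siglech gate. In the Klf1 gate, where cells are deep, 48.0%, 48.6% and 48.5% of cells were positive, and the thinned shares were 3.87%, 4.20% and 4.08%. The difference between neutrophils and plasmacytoid dendritic cells was therefore present at like depth.

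Within the B lineage, Cnr2 was low in precursors with Vpreb1. Cd79a cells with Ighd, a transcript of mature B cells, had 27.3, 27.0 and 31.8 CPM. Cd79a cells with Vpreb1 and no Ighd, which mark precursors, had 5.35, 8.57 and 5.65 CPM. The cells with Ighd were higher than these in each library. Cd79a cells with neither mark held most of the Cnr2 UMIs of the gate and were not summed on their own. Precursors without either mark would be among these and are not covered. Eosinophil-like cells with Prg2 and Epx had 29.2, 27.4 and 23.8 CPM from 24, 25 and 12 UMIs.

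Comparisons of Cnr2 inside gates did not all follow the comparison over all cells. The Cd79a gate was higher in IR than in Control, with a ratio of 1.34 (1.2 to 1.49). Its precursors (Vpreb1, no Ighd) had 1.60 (1.16 to 2.22) from 107 and 64 UMIs, and its Ighd-positive cells 0.991 (0.801 to 1.23). The ratio in its other cells, which held most of its Cnr2 UMIs, was not computed, so the rise is not placed in any 1 subset. The Klf1 gate had a ratio of 1.02 (0.919 to 1.13), which turned to 0.985 with doubled gate thresholds. The Csf1r and Ccr2 gate was lower in IR, at 0.813 (0.689 to 0.957), and at 0.538 (0.366 to 0.779) among cells in exactly 1 gate. The Klf1 gate held 21.1% of the Cnr2 UMIs of Control, 44.2% of those of IR and 37.3% of those of IR+CBD, and when gates were weighted by their Control shares the ratio over all cells was 1.07. Between IR+CBD and IR, Cnr2 was higher in the Mpo gate at 1.21 (1.09 to 1.35), in the Cd79a gate at 1.14 (1.03 to 1.26), in the Csf1r and Ccr2 gate at 1.23 (1.02 to 1.5) and in the Cd34 and Adgrl4 gate at 1.18 (1.03 to 1.34). The last of these was 1.65 (1.07 to 2.55) among cells in exactly 1 gate. The B precursors went the other way, at 0.660 (0.445 to 0.960) from 39 and 107 UMIs. In the Klf1 gate no difference was detectable at this depth, at 1.02 (0.938 to 1.10). Cells with Hlf and Mecom, genes of stem cells, had 8.29, 7.88 and 11.3 CPM. They were higher in IR+CBD than in IR by 1.43 (1.12 to 1.84). That gate held 1050, 444 and 524 cells of Control, IR and IR+CBD, or 9.84%, 4.29% and 5.10% of those kept. These shares are larger than those the paper gives for its stem cells, so the ratio is not one for stem cells alone. For IR+CBD over Control, the Cd79a gate had 1.52 (1.36 to 1.70) from 682 and 550 UMIs. This was past 1.5-fold, but the share of all genes past it in that gate was not computed. The precursors of the Cd79a gate had 1.06 (0.691 to 1.60) and the Klf1 gate 1.04 (0.931 to 1.15).

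Gpr55 (ENSMUSG00000049608) encodes a receptor for lysophosphatidylinositol that CBD antagonises. It was near the limit of detection, with 40 UMIs in 33 cells of Control, 19 UMIs in 17 cells of IR and 14 UMIs in 13 cells of IR+CBD. These are 0.205 CPM (0.147 to 0.280), 0.0939 CPM (0.0565 to 0.147) and 0.0807 CPM (0.0441 to 0.135). Control was the highest library, where IR was lower by a ratio of 0.457 (0.250 to 0.808). IR+CBD stood at 0.860 (0.399 to 1.81) of IR, which is not a detectable difference at this depth. Without the T and NK gates this ratio turned to 1.02 (0.462 to 2.23). The T cell gate (Cd3e with Cd3g) held 2, 3 and 0 of the Gpr55 UMIs.

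No Gpr55 UMI was found in 586, 1446 and 1181 cells of the Klf1 gate, which in IR allows up to 0.0473 CPM and limits the cells with a UMI, not those expressing the gene, to 0.207%. The Mpo gate had 5, 5 and 3 UMIs and the Cd79a gate 20, 6 and 6. Neighbouring gates of the 7 did not differ, apart from the Siglech gate of IR, which was above the next by a ratio of 16.1 (1.34 to 140). Its 2 UMIs lay in 1 of 46 cells, while that interval treats them as independent. A small population stood apart from all of these: cells with at least 20 Jchain UMIs and a Tnfrsf17 UMI, as in plasma cells. Of 22, 9 and 11 such cells, 8, 4 and 5 had a Gpr55 UMI, which is 36.4%, 44.4% and 45.5% at median depths of 19650, 26266 and 21668 UMIs. In the deeper Mpo gate (median depths of 33196, 30684 and 24151 UMIs) the share was 0.155%, 0.171% and 0.0911%. After thinning, the shares were 4.69%, 5.73% and 5.69% in the Jchain and Tnfrsf17 gate against 0.0104%, 0.0106% and 0.00550% in the Mpo gate. These few cells held 30.0%, 26.3% and 42.9% of the Gpr55 UMIs and 0.243%, 0.129% and 0.174% of all UMIs. Inside them the level was 25.3, 19.1 and 19.9 CPM from 12, 5 and 6 UMIs.

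Gpr18 (ENSMUSG00000050350) encodes a receptor of lymphoid cells that responds to lipid ligands, among them N-arachidonoyl glycine. Over all cells its level was 6.95 CPM (6.58 to 7.33) in Control, 6.93 CPM (6.57 to 7.30) in IR and 6.04 CPM (5.68 to 6.41) in IR+CBD. Control and IR had nearly the same interval and IR+CBD was the lowest. For IR over Control the ratio was 0.997 (0.925 to 1.08), which turned to 1.12 as a mean of per-cell CPM, 1.09 with gates weighted by their Control shares and 1.09 in thinned cells. For IR+CBD over IR it was 0.871 (0.803 to 0.944).

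Plasmacytoid dendritic cells had the highest Gpr18 level of the 7 gates, at 27.3, 32.5 and 25.0 CPM, followed by the Cd79a gate at 15.6, 17.5 and 15.8 CPM. The step between them was beyond its interval in Control and IR and not in IR+CBD. Next came the Csf1r and Ccr2 gate (5.71, 6.62 and 7.36 CPM), the Cd34 and Adgrl4 gate (5.63, 6.49 and 5.89 CPM) and the Mpo gate (4.84, 6.26 and 5.53 CPM), with steps beyond their intervals between the latter pair in Control and between the former pair in IR+CBD. The lowest were the Retnlg gate (3.11, 3.30 and 2.81 CPM) and the Klf1 gate (2.01, 2.40 and 2.16 CPM), which did not differ from each other in any library.

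The Siglech gate exceeded the Klf1 gate in Gpr18 by ratios of 13.6, 13.5 and 11.6. A Gpr18 UMI was found in 25.3%, 34.8% and 24.1% of Siglech cells, and in 7.34%, 9.61% and 8.21% of Klf1 cells at median depths of 39670, 42567 and 40039 UMIs. After thinning the shares were 6.87%, 6.77% and 5.88% in the former and 0.358%, 0.448% and 0.433% in the latter. T cells (Cd3e with Cd3g, 100, 49 and 46 cells) reached 25.0, 54.6 and 35.3 CPM, and NK cells (Klrb1c with Ncr1, 79, 29 and 44 cells) 26.8, 39.2 and 27.0 CPM.

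Inside the Mpo gate Gpr18 was higher in IR than in Control, with a ratio of 1.29 (1.15 to 1.46), and of 1.62 (1.17 to 2.26) among cells in exactly 1 gate. In the Cd34 and Adgrl4 gate it was 1.15 (1.01 to 1.31), which turned to 0.803 among cells in exactly 1 gate. The Cd79a gate, which held 36.5%, 44.9% and 39.0% of the Gpr18 UMIs, had a ratio of 1.12 (0.993 to 1.26). Between IR+CBD and IR the Mpo gate was lower, at 0.883 (0.781 to 0.999), and the Cd79a gate had 0.905 (0.797 to 1.03). The T cell gate was higher in IR than in Control, at 2.18 (1.19 to 4.04) from 28 and 21 UMIs, and without the T and NK gates the ratio over all cells was 0.994.

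Trpv2 (ENSMUSG00000018507) encodes a cation channel that CBD opens. Its level was 19.1 CPM (18.5 to 19.8) in Control, 19.7 CPM (19.1 to 20.3) in IR and 20.4 CPM (19.7 to 21) in IR+CBD. The libraries were close, with overlapping intervals between neighbours. The ratio of IR over Control was 1.03 (0.984 to 1.08), which turned to 0.920 as a mean of per-cell CPM, 0.983 with weighted gates and 0.894 in thinned cells. That of IR+CBD over IR was 1.03 (0.987 to 1.08), and that of IR+CBD over Control was 1.06 (1.02 to 1.11), clear of 1.

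Like Gpr18, Trpv2 was highest in the Siglech gate, at 44.0, 45.5 and 47.7 CPM. The step to the next gate, Klf1 (23.4, 27.1 and 27.0 CPM), was beyond its interval in each library. The Csf1r and Ccr2 gate had 22.0, 18.1 and 22.5 CPM, which did not differ from the Klf1 gate in Control and was below it in IR and IR+CBD. The Cd79a gate had 19.0, 19.5 and 22.1 CPM, the Retnlg gate 17.6, 17.5 and 19.4 CPM, the Cd34 and Adgrl4 gate 17.8, 15.5 and 16.8 CPM, and the Mpo gate 15.6, 14.1 and 15.4 CPM. Neighbours among these 5 gates did not differ, apart from Csf1r and Ccr2 above Cd79a in Control, Cd34 and Adgrl4 above Mpo in IR and IR+CBD, and Retnlg above Cd34 and Adgrl4 in IR+CBD. The whole range over the 7 gates was narrow, with Siglech over Mpo at 2.82, 3.22 and 3.09. Among cells in exactly 1 gate the Csf1r and Ccr2 gate had the highest level in each library in place of the Siglech gate.

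A Trpv2 UMI was found in 33.0%, 39.1% and 30.4% of Siglech cells, and in 35.5%, 32.5% and 27.9% of the much deeper Mpo cells. Thinned to like depth, the shares were 8.70%, 9.31% and 7.77% against 3.23%, 2.73% and 2.93%. The lowest level among the larger added gates was in cells with at least 3 Pf4 UMIs, a megakaryocyte transcript, at 10.0, 9.43 and 9.78 CPM. T cells had between 32.5 and 44.8 CPM and NK cells between 37.6 and 39.2 CPM, from 64 and 73 UMIs over the libraries.

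The ratios of Trpv2 inside gates ran in both directions for IR over Control. The Klf1 gate was higher in IR at 1.16 (1.05 to 1.27). The Csf1r and Ccr2 gate was lower at 0.825 (0.752 to 0.905), the Cd34 and Adgrl4 gate at 0.870 (0.804 to 0.94) and the Mpo gate at 0.905 (0.842 to 0.972), and among cells in exactly 1 gate these turned to 1.06, 1.14 and 1.02. Between IR+CBD and IR, the Csf1r and Ccr2 gate was higher at 1.24 (1.11 to 1.38) and the Mpo gate at 1.09 (1.01 to 1.18). The Cd79a gate was higher too, at 1.13 (1.01 to 1.27). In IR+CBD over Control these 3 gates had 1.02 (0.926 to 1.13), 0.989 (0.919 to 1.06) and 1.16 (1.03 to 1.30).

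Adora2a (ENSMUSG00000020178) encodes an adenosine receptor that raises cyclic AMP and restrains immune cells. The libraries held 590, 275 and 313 UMIs, or 3.03 CPM (2.79 to 3.28), 1.36 CPM (1.2 to 1.53) and 1.80 CPM (1.61 to 2.02) for Control, IR and IR+CBD. Control was the highest library, IR the lowest, and IR+CBD lay between them with an interval that met neither. IR over Control was 0.449 (0.388 to 0.519), IR+CBD over IR was 1.33 (1.13 to 1.57), and IR+CBD over Control was 0.596 (0.518 to 0.685). The ratios of IR over Control and of IR+CBD over IR kept their direction under each scaling tried, with 1.11 for IR+CBD over IR both as a mean of per-cell CPM and in thinned cells. Positive cells made up 5.08%, 2.35% and 2.76%, or 0.899%, 0.395% and 0.438% after thinning.

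Across the gates Adora2a was low and graded. The Siglech gate had 4.40, 4.87 and 5.96 CPM from 14, 3 and 5 UMIs, too few to differ from the next gate in any library. The Cd79a gate had 3.95, 2.22 and 2.44 CPM, and the Cd34 and Adgrl4 gate 3.38, 1.70 and 2.79 CPM, which did not differ from each other. The Mpo gate had 2.33, 1.2 and 1.95 CPM and the Csf1r and Ccr2 gate 1.5, 0.963 and 1.36 CPM, and the steps down to the Mpo gate in Control and IR and from it in Control were beyond their intervals. At the bottom were the Retnlg gate (0.835, 0.607 and 0.685 CPM) and the Klf1 gate (0.616, 0.457 and 0.332 CPM), which did not differ.

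The share of positive cells was 9.44%, 4.82% and 7.21% in the Cd34 and Adgrl4 gate (median depths of 27462, 32784 and 26468 UMIs), against 2.56%, 1.87% and 1.27% in the deeper Klf1 gate. Thinned, these were 0.868%, 0.403% and 0.633% against 0.131%, 0.125% and 0.0691%. T cells had 20.3, 11.7 and 29.8 CPM from 17, 6 and 11 UMIs, and NK cells 20.4, 11.5 and 10.8 CPM from 19, 5 and 6 UMIs. These levels were above those of the 7 gates, but in IR, and for NK cells in IR+CBD, their intervals overlapped that of the Siglech gate. These populations held little of the total: the T cell gate 2.88%, 2.18% and 3.51% of Adora2a UMIs and the NK cell gate 3.22%, 1.82% and 1.92%. Cells with Pf4 had 6.67, 5.76 and 9.78 CPM, and cells with Hlf and Mecom 5.73, 3.80 and 3.69 CPM.

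The lower level of Adora2a in IR was found inside several gates. The ratio of IR over Control was 0.514 (0.408 to 0.643) in the Mpo gate, where 1 of 7 genes was past 1.5-fold against 5.48% of all genes. In the Cd34 and Adgrl4 gate it was 0.502 (0.402 to 0.623), and again Adora2a was the 1 of 7 past that fold, against 8.01% of all genes. Among cells in exactly 1 gate these ratios were 0.907 (0.473 to 1.73) and 0.831 (0.516 to 1.30), no longer past 1.5-fold. The Cd79a gate had 0.562 (0.419 to 0.750), where Adora2a was 1 of 6 past the fold (6.51% of all genes), and 0.520 (0.368 to 0.728) among cells in that gate alone. In the Klf1 gate, with 15 and 29 UMIs, the ratio of 0.743 (0.385 to 1.49) showed no detectable difference and turned to 1.01 without predicted doublets. The cells in none of the 7 gates had 7.13, 3.10 and 4.26 CPM and a ratio of 0.434.

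Between IR+CBD and IR, Adora2a was higher by 1.62 (1.27 to 2.08) in the Mpo gate and by 1.64 (1.28 to 2.11) in the Cd34 and Adgrl4 gate. It was the 1 of 7 genes past 1.5-fold in each, beside 2.09% and 2.15% of all genes. Among cells in exactly 1 gate the ratios were 1.11 (0.609 to 2.08) and 1.03 (0.581 to 1.83), and with doubled thresholds the ratio in the Cd34 and Adgrl4 gate was 1.49 (1.11 to 1.99). In the cells that belong to either gate alone, the difference was not detectable at their depth. The Cd79a gate, at 1.10 (0.777 to 1.55), and cells with Hlf and Mecom, at 0.971 (0.651 to 1.44), showed none detectable. Basophil-like cells with at least 3 Mcpt8 UMIs had 3.71, 1.43 and 3.25 CPM, lowest in IR, which was 0.384 (0.212 to 0.668) of Control and which IR+CBD exceeded by 2.28 (1.27 to 4.24).

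Markers of T and NK cells were compared because those cells had high Adora2a, Faah and Gpr18. The 4 T cell markers, none at 0 in any library, summed to 9.59 CPM in Control, 7.40 CPM in IR and 6.39 CPM in IR+CBD, led by Cd3d at 4.28, 3.32 and 2.92 CPM. The 4 NK cell markers, none at 0, summed to 295, 281 and 343 CPM, nearly all of it Nkg7 (285, 274 and 338 CPM), which Mpo cells also carry (430, 511 and 616 CPM). With the T and NK gates left out, the Adora2a ratios were 0.455 (0.391 to 0.527) and 1.31 (1.10 to 1.55), nearly as over all cells.

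**Figure D2:**
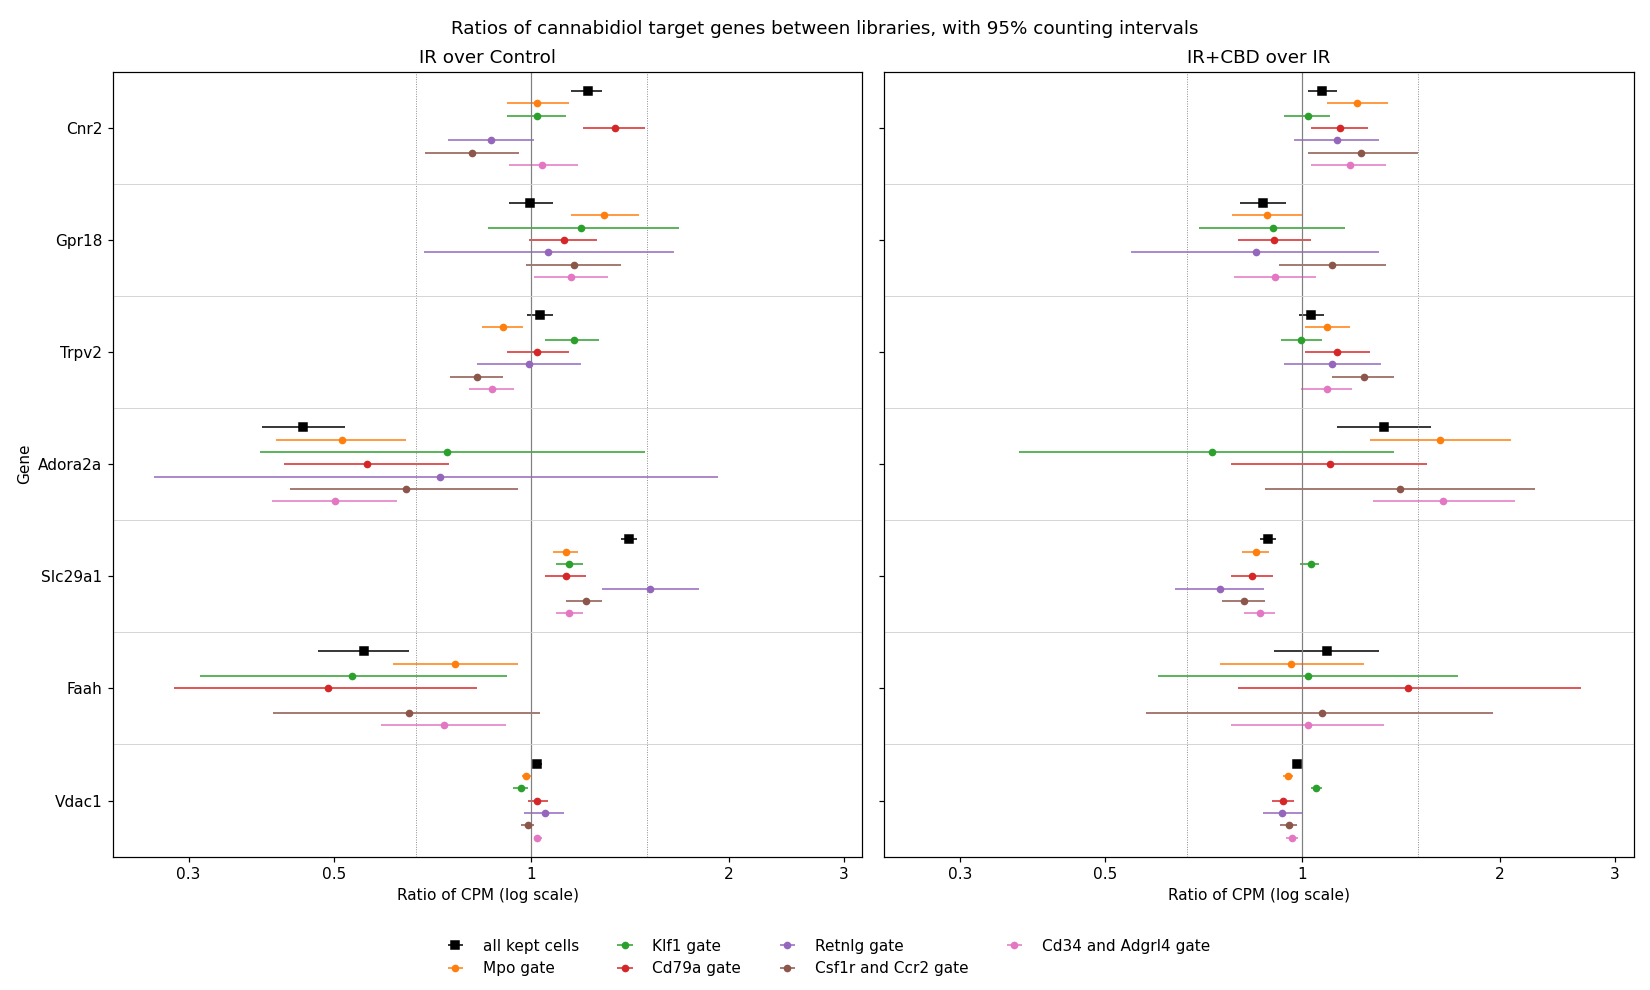
Ratio of CPM (x axis, log scale) for IR over Control and IR+CBD over IR in all kept cells (squares) and in 6 gates (circles) for 7 genes (y axis), with exact conditional binomial 95% intervals and dotted lines at 1.5-fold in either direction; the small Siglech gate and sums under 20 UMIs are left out. Over all cells Adora2a lies at 0.449 in IR over Control and at 1.33 in IR+CBD over IR.

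Slc29a1 (ENSMUSG00000023942) encodes an equilibrative nucleoside transporter that takes up adenosine. Its level was 42.9 CPM (42.0 to 43.8) in Control, 60.4 CPM (59.3 to 61.5) in IR and 53.5 CPM (52.4 to 54.6) in IR+CBD. Control was the lowest library and IR the highest, with no overlap of intervals. IR over Control stood at 1.41 (1.37 to 1.45), IR+CBD over IR at 0.885 (0.862 to 0.910) and IR+CBD over Control at 1.25 (1.21 to 1.28). A UMI was found in 35.1%, 38.1% and 32.5% of cells.

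The erythroid gate had the highest Slc29a1 level by far, with 98.3, 112 and 115 CPM, or 2.08, 2.11 and 2.58 times that of the next gate. That next gate was Cd79a in each library, at 47.3, 53.3 and 44.7 CPM. The Cd34 and Adgrl4 gate (41.0, 47.0 and 40.4 CPM), the Csf1r and Ccr2 gate (39.1, 47.2 and 38.3 CPM) and the Mpo gate (39.1, 44.1 and 37.4 CPM) were close, with a step beyond its interval only in IR, above the Mpo gate. The Siglech gate had 45.2, 26.0 and 26.2 CPM from 144, 16 and 22 UMIs. Neutrophils were lowest, at 16.9, 25.5 and 19.1 CPM, and the Klf1 gate exceeded them by 5.83, 4.39 and 6.04. In IR and IR+CBD the Siglech gate did not differ from them, at ratios of 1.02 (0.575 to 1.67) and 1.37 (0.847 to 2.12). That neutrophil level was much lower under other settings, at 2.60, 3.55 and 4.61 CPM without predicted doublets, and 2.18, 3.27 and 1.77 CPM among cells in exactly 1 gate.

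In the Klf1 gate 87.2%, 87.9% and 89.3% of cells had a Slc29a1 UMI, against 9.06%, 10.8% and 8.64% of the shallower Retnlg cells, predicted doublets included. At 2000 UMIs per cell these became 17.0%, 18.8% and 19.6% against 1.42%, 1.76% and 1.43%. B precursors (Cd79a with Vpreb1, no Ighd) had 71.2, 68.1 and 62.9 CPM, the highest level after the Klf1 gate among populations of more than 10 cells. The few cells with Stab2 and Cdh5 had between 168 and 392 CPM, from 3, 7 and 11 UMIs.

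The Klf1 gate held 28.6%, 58.2% and 59.8% of the Slc29a1 UMIs of Control, IR and IR+CBD, while its share of all UMIs was 12.5%, 31.3% and 27.7%. With gates weighted by their Control shares, the ratio of IR over Control over all cells was 1.07. Inside the gates it was 1.14 (1.09 to 1.2) for Klf1, 1.13 (1.08 to 1.18) for Mpo, 1.14 (1.09 to 1.2) for Cd34 and Adgrl4 and 1.21 (1.13 to 1.28) for Csf1r and Ccr2, the last being 1.94 (1.31 to 2.89) among cells in exactly 1 gate. In the Cd79a gate it was 1.13 (1.05 to 1.21), which turned to 0.869 among cells in exactly 1 gate and 0.946 without predicted doublets. With overlapping cells kept, none of these reached 1.5-fold, and in the Klf1 gate 0 of 5 genes did (4.97% of all genes), as in the Csf1r and Ccr2 gate (0 of 5, 4.44%).

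Past 1.5-fold were the Siglech gate, lower at 0.574 (0.320 to 0.965) from 16 and 144 UMIs, the T cell gate and neutrophils. The T cell gate (Cd3e with Cd3g) was higher in IR than in Control, at 2.04 (1.01 to 4.22) from 20 and 16 UMIs. For the Siglech and T cell gates the share of all genes past that fold was not computed. The neutrophil ratio of IR over Control was 1.52 (1.28 to 1.80), which made Slc29a1 the 1 of 4 genes past 1.5-fold in the Retnlg gate, beside 5.01% of all genes. Without predicted doublets it was 1.37 (0.764 to 2.49), no longer past that fold, and the Siglech ratio was 0.664 (0.293 to 1.32). Between IR+CBD and IR the Retnlg gate had 0.748 (0.638 to 0.875), and 1.30 (0.8 to 2.12) without predicted doublets, a turn in direction.

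Most other gates were also lower in IR+CBD than in IR: Mpo at 0.848 (0.809 to 0.888), Cd79a at 0.838 (0.779 to 0.902), Cd34 and Adgrl4 at 0.860 (0.814 to 0.908) and Csf1r and Ccr2 at 0.813 (0.753 to 0.877). The Klf1 gate was not, at 1.03 (0.992 to 1.06). No gene was past 1.5-fold in this comparison in the Klf1 gate (0 of 5, 2.09% of all genes), the Cd79a gate (0 of 5, 2.49%), the Retnlg gate (0 of 4, 2.36%) or the Csf1r and Ccr2 gate (0 of 5, 2.18%).

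Faah (ENSMUSG00000034171) encodes the hydrolase that breaks down anandamide, and CBD raises anandamide in some settings. Its 430, 248 and 231 UMIs gave 2.21 CPM (2.0 to 2.43) in Control, 1.23 CPM (1.08 to 1.39) in IR and 1.33 CPM (1.17 to 1.51) in IR+CBD. Control was the highest library, and the irradiated libraries had overlapping intervals. IR was below Control by a ratio of 0.555 (0.473 to 0.651) and IR+CBD by 0.603 (0.512 to 0.710), while IR+CBD over IR was 1.09 (0.904 to 1.31). Positive cells were 3.50%, 2.06% and 1.97%, or 0.559%, 0.265% and 0.287% after thinning.

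Of the 7 gates, Cd34 and Adgrl4 had the highest Faah level in each library (2.57, 1.89 and 1.92 CPM), followed by Mpo (1.94, 1.48 and 1.43 CPM), with a step beyond its interval in Control and IR+CBD and not in IR. The other gates lay between 0.472 and 1.57 CPM where a UMI was found, and did not differ from their neighbours, except that in IR the Mpo gate exceeded the next by 2.11 (1.41 to 3.24). The Siglech gate had 5, 0 and 0 UMIs in 273, 46 and 79 cells, a depth that allows up to 4.87 CPM in IR. The positive share was 7.12%, 5.64% and 4.97% in the Cd34 and Adgrl4 gate against 0.996%, 0.465% and 0.576% in the shallower Retnlg gate, and thinned 0.726%, 0.463% and 0.454% against 0.108%, 0.0430% and 0.0710%.

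Some populations gated on other genes, whose cells may also lie in the 7 gates, had more Faah. Basophil-like cells with Mcpt8 had 5.21, 6.73 and 5.13 CPM from 73, 85 and 60 UMIs, and 13.2%, 16.7% and 11.1% of them were positive, or 1.97%, 2.14% and 2.12% after thinning. They held 17.0%, 34.3% and 26.0% of the Faah UMIs and 7.19%, 6.24% and 6.75% of all UMIs. T cells had 10.7, 11.7 and 19.0 CPM and NK cells 11.8, 11.5 and 12.6 CPM, each from 5 to 11 UMIs. Cells with Hlf and Mecom had 3.93, 3.05 and 3.76 CPM.

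Inside gates, the ratio of Faah for IR over Control was 0.766 (0.615 to 0.953) for Mpo, 0.532 (0.312 to 0.918) for Klf1 and 0.490 (0.285 to 0.826) for Cd79a, with fewer than 200 UMIs in the latter pair. For Cd34 and Adgrl4 it was 0.736 (0.589 to 0.915), which turned to 1.13 (0.713 to 1.76) among cells in exactly 1 gate. The basophil-like cells did not share the lower level, at 1.29 (0.934 to 1.79). Without the T and NK gates the ratio over all cells was 0.554. None of the gates with 20 or more UMIs showed a detectable difference between IR+CBD and IR, with 0.962 (0.748 to 1.24) for Mpo and 1.02 (0.779 to 1.33) for Cd34 and Adgrl4.

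Vdac1 (ENSMUSG00000020402) encodes a channel of the mitochondrial outer membrane that passes metabolites. It was at 242 CPM (240 to 245) in Control, 248 CPM (246 to 250) in IR and 244 CPM (241 to 246) in IR+CBD. IR was highest by a small margin. The ratio of IR over Control was 1.02 (1.01 to 1.04), which turned to 0.975 with weighted gates. That of IR+CBD over IR was 0.981 (0.969 to 0.994), which turned to 1.01 as a mean of per-cell CPM and in thinned cells.

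The order of the gates for Vdac1 was alike in the libraries. Klf1 was highest at 326, 314 and 329 CPM, beyond the interval of its step to Mpo at 289, 284 and 270 CPM. The Csf1r and Ccr2 gate (284, 281 and 267 CPM) did not differ from Mpo, and Cd34 and Adgrl4 (270, 277 and 267 CPM) did not differ from Csf1r and Ccr2 in IR and IR+CBD. The Cd79a gate had 172, 176 and 164 CPM, the Siglech gate 172, 143 and 131 CPM and the Retnlg gate 111, 116 and 108 CPM. Klf1 over Retnlg was 2.93, 2.70 and 3.04. Without predicted doublets the Retnlg gate had 48.0, 50.8 and 46.7 CPM. In neutrophils, the lowest gate, 35.6%, 34.4% and 34.3% of cells had a Vdac1 UMI, or 9.96%, 9.46% and 9.96% after thinning, against 46.2%, 44.0% and 46.6% in thinned Klf1 cells.

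Ratios of Vdac1 inside the larger gates lay close to 1. For IR over Control they were 0.963 (0.939 to 0.989) in the Klf1 gate and 0.983 (0.967 to 0.999) in the Mpo gate. The Cd34 and Adgrl4 gate had 1.02 (1.01 to 1.04). For IR+CBD over IR the Klf1 gate was higher at 1.05 (1.03 to 1.07), and the Mpo gate lower at 0.950 (0.934 to 0.967). The Cd79a gate had 0.934 (0.898 to 0.971).

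The other genes of the pathway were taken from lists of 47 genes: receptors and channels reported to respond to CBD, adenosine turnover, and the synthesis, carriage and breakdown of endocannabinoids. Of these, 26 had at least 200 UMIs over the libraries and 3 had none, and the remaining ones, the other cannabinoid receptor gene Cnr1 among them, are only counted here. Past 1.5-fold in IR over Control were 6 of 26, with 4 higher (Gpr12, Pparg, Mgll and Fabp4) and 2 lower (Abhd6 and Ptgs2), beside 11.0% of all genes, and the median log2 ratio was -0.06 (-0.05 over all genes). In IR+CBD over IR, 1 of 25 was past it, Ptgs2, which was higher, beside 2.46% of all genes, and the median was -0.07 (0.00). In IR+CBD over Control, 2 of 26 were higher and 3 lower, beside 8.62% of all genes in either direction, with a median of -0.09 (-0.04).

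Mgll, which breaks down the other main endocannabinoid, 2-arachidonoylglycerol, had 9.79 CPM in Control, 17.3 CPM in IR and 16.4 CPM in IR+CBD, and IR over Control was 1.77 (1.67 to 1.87). It lay mostly in the Klf1 gate, which held 54.6%, 74.1% and 74.3% of its UMIs, and inside that gate its level was 42.8, 41.0 and 43.9 CPM. In 4 other gates the Mgll level was highest in IR, with 8.89, 14.6 and 11.8 CPM in the Cd79a gate, 28.6, 35.3 and 28.1 CPM in Retnlg, 2.43, 3.17 and 3.10 CPM in Mpo and 2.01, 2.81 and 2.08 CPM in Cd34 and Adgrl4. The Csf1r and Ccr2 gate was highest in IR+CBD, with 1.44, 1.83 and 2.42 CPM. The Siglech gate was highest in Control, with 14, 1 and 0 UMIs. These levels are given without intervals. The hydrolase gene Abhd6 had 2.71, 1.58 and 1.68 CPM, with a ratio of 0.584 (0.506 to 0.672). Ptgs2, whose product oxidises endocannabinoids, had 7.72, 3.89 and 6.15 CPM, lowest in IR, with ratios of 0.503 (0.461 to 0.549) and 1.58 (1.44 to 1.73). It was higher in the Retnlg gate, at 30.2, 21.3 and 33.8 CPM.

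Fabp4, a lipid carrier, had 0.462, 2.27 and 1.72 CPM and a ratio of 4.92 (3.92 to 6.24), with UMIs in 35, 84 and 31 cells. It was at 0.135, 0.286 and 0.153 CPM in the Mpo gate and 0.354, 0.329 and 0.113 CPM in the Csf1r and Ccr2 gate. Most of its UMIs, however, came from very few cells. In Control 55 of 90 lay in 6 cells, in IR 349 of 460 and in IR+CBD 273 of 299. Endothelial-like cells with Stab2 and Cdh5, which numbered 1, 5 and 4, held 41.1%, 73.9% and 89.0% of them. The 4 endothelial markers summed to 98.2, 80.8 and 78.2 CPM over all cells (none at 0, led by Pecam1 at 94.0, 79.2 and 76.7 CPM). The sums were 3396, 3438 and 3116 CPM in the endothelial-like cells. Cdh5 is 1 of the 4 markers, so the gate itself raises the sums in those cells, which are no check of their identity. The nuclear receptor gene Pparg, at 0.724, 1.45 and 1.03 CPM, had 6.38%, 46.3% and 29.6% of its UMIs there. Gpr12 (0.606, 0.934 and 0.807 CPM) lay almost wholly in the Cd79a gate, with 97.5%, 98.4% and 93.6% of its UMIs.

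In the adenosine list, beside Adora2a and Slc29a1, 0 of 8 genes measured were past 1.5-fold in IR over Control, beside 11.0% of all genes, with a median log2 ratio of -0.29 where all genes had -0.05. The receptor gene Adora2b had 1.48, 1.01 and 0.772 CPM, highest in Control and lowest in IR+CBD. Adora3 had 0.667, 0.450 and 0.432 CPM. These were the genes of the list past 1.5-fold in IR+CBD over Control, both lower, so 2 of 8 beside 8.62% of all genes. The lysosomal transporter gene Slc29a3 was at 15.5, 10.9 and 10.3 CPM, lower in IR than in Control at 0.701 (0.663 to 0.741), opposite in direction to Slc29a1. The kinase gene Adk, which clears adenosine, was at 135, 168 and 157 CPM, and the Klf1 gate held 25.6%, 55.5% and 51.5% of its UMIs. Other genes of the list were lower in IR than in Control, Ada at 0.831 (0.795 to 0.868), Entpd1 at 0.810 (0.767 to 0.856) and Nt5e at 0.865 (0.775 to 0.966). The other channel genes of the family of Vdac1 were near even, Vdac2 at 374, 391 and 377 CPM and Vdac3 at 189, 204 and 192 CPM.

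Likeness between patterns was measured as Pearson's r across the 21 points given by 7 gates in 3 libraries, on log2(CPM + 1), for 12459 genes. The points share libraries and, through overlapping gates, cells, so r is only a description. Closest to Cnr2 were Ttc39b (0.947), Cd24a (0.901) and Igf2r (0.890). For Gpr18 they were Lrch1 (0.981), Gm13919 (0.979) and Usp12 (0.978), and for Trpv2 Ctnna1 (0.967), Evi5 (0.951) and Pcyt1a (0.949). Adora2a had Septin6 (0.950), Gpr171 (0.950) and 2810408A11Rik (0.949), and the genes closest to Slc29a1 included Kat8 (0.973) and Carnmt1 (0.971). Faah was closest to Pard3b (0.949), Arhgef28 (0.909) and Ghr (0.906), and Vdac1 to Mrpl17 (0.993), Nhp2 (0.992) and Slc25a3 (0.992). Patterns like that of Vdac1 were common, with 1060 genes above an r of 0.9, whereas 2 genes passed it for Cnr2 and 4 for Faah. Among the genes themselves, the highest r was 0.87 between Gpr18 and Adora2a, followed by 0.75 between Slc29a1 and Vdac1, and the lowest was -0.61 between Trpv2 and Faah.

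Reads of a gene could be mistaken for those of one that overlaps it, so overlaps were looked up by name in the GENCODE M21 annotation of an earlier mouse build, GRCm38. Cnr2, Trpv2, Adora2a, Faah and Vdac1 overlap no other gene there. Gpr18 lies on the opposite strand within Ubac2, which had 67.4, 59.0 and 60.7 CPM. Gpr55 and Slc29a1 each overlap a gene on the opposite strand with little or no signal, 4933407L21Rik with 4, 0 and 2 UMIs and Gm17080 with 0.175, 0.188 and 0.190 CPM.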

How the data were processed

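The authors deposited, for each library, a table of UMI counts per gene and barcode already called as a cell. Per the file headers these counts came from Cell Ranger 7.0.1, while the methods and the submitters' notes name version 4.0, and those notes give GRCm39 as the build. Python 3.11.15 with numpy 2.4.6, scipy 1.17.1 and pandas 2.3.3 summed raw counts over kept cells, and matplotlib 3.10.9 drew the figures. Predicted doublets were kept. As an alternative, the cells scoring highest in Scrublet (scanpy 1.11.5), 0.8% per 1000 cells, were removed. The 7 gates were checked against markers they do not use, the 10 further gates were not, and lists of T cell, NK cell and endothelial markers were summed. The ratio intervals were tested on simulated independent counts, which leave out UMIs clustered in the same cells. No test between groups was made. A gene with no UMI was given a limit from 3 counts.

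By rule, the 8 genes, pathway genes with 200 or more UMIs over the 3 libraries and the 3 genes with the highest r for each of the 8 with 200 or more UMIs could be named with values. Of the pathway genes, those past 1.5-fold and a few others chosen after their values were seen are named, and 1 gene is not reported here. Counts past a fold use genes with 200 or more UMIs in the libraries compared, and ratios inside gates need 20. List medians use a pseudocount of 0.5 UMI. The genes and lists were chosen with earlier results of these data known. Alternatives changed the scaling, the cell filters, the doublets, the fold, the minimum of UMIs, the gate thresholds and overlaps, and the measure of likeness.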

Additional observations from a re-analysis of the deposited data

Results flagged for a closer look

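For some genes the ratios in different gates lay on opposite sides of 1, each with an interval clear of 1. Only the 7 gates were compared for this, in IR over Control and in IR+CBD over IR. For each gene and comparison 1 pair is given, the gates of the 7 whose intervals lay farthest from 1 on each side. Others of the 7, and some of the 10 further gates, also had intervals clear of 1. These differences between gates were not tested.

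For IR over Control, Cnr2 was higher in the Cd79a gate at 1.34 (1.2 to 1.49) and lower in the Csf1r and Ccr2 gate at 0.813 (0.689 to 0.957). Trpv2 was higher in the Klf1 gate at 1.16 (1.05 to 1.27) and lower in the Csf1r and Ccr2 gate at 0.825 (0.752 to 0.905), the latter turning to 1.06 among cells in exactly 1 gate. Slc29a1 was higher in the Retnlg gate at 1.52 (1.28 to 1.80) and lower in the Siglech gate at 0.574 (0.320 to 0.965), which rests on 16 and 144 UMIs. Without predicted doublets neither interval was clear of 1, at 1.37 (0.764 to 2.49) and 0.664 (0.293 to 1.32). Vdac1 was higher in the Cd34 and Adgrl4 gate at 1.02 (1.01 to 1.04) and lower in the Klf1 gate at 0.963 (0.939 to 0.989), the former at 1.01 (0.991 to 1.03) without predicted doublets.

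For IR+CBD over IR, Vdac1 was higher in the Klf1 gate at 1.05 (1.03 to 1.07) and lower in the Mpo gate at 0.950 (0.934 to 0.967). IR+CBD over Control was not part of this listing. There Slc29a1 was higher in the Klf1 gate at 1.17 (1.12 to 1.23) and lower in the Siglech gate at 0.580 (0.352 to 0.912), from 22 and 144 UMIs.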

How the results depend on the processing

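All 16 ratios over all cells kept values within their intervals with a mitochondrial limit of 10%, a minimum of 1000 genes per cell and predicted doublets removed, and also with the T and NK gates or the Siglech gate left out, both alternatives chosen after seeing the data. Other settings moved some ratios beyond their counting intervals, and the cause was not tested.

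For IR over Control, the mean of per-cell CPM gave 1.13 for Cnr2, 1.12 for Gpr18, 0.920 for Trpv2, 1.22 for Slc29a1, 0.423 for Faah and 1.00 for Vdac1. Gates weighted by their Control shares gave 1.07 for Cnr2, 1.09 for Gpr18, 0.983 for Trpv2, 0.561 for Adora2a, 1.07 for Slc29a1, 0.663 for Faah and 0.975 for Vdac1. Thinning to 2000 UMIs gave 1.09 for Gpr18, 0.894 for Trpv2, 1.2 for Slc29a1 and 1.00 for Vdac1, and median-ratio scaling 1.05 for Vdac1. For IR+CBD over IR, the mean of per-cell CPM gave 0.785 for Gpr18, 1.11 for Adora2a, 0.848 for Slc29a1 and 1.01 for Vdac1. Weighted gates gave 1.15 for Cnr2 and 1.09 for Trpv2, and thinning gave 0.756 for Gpr18, 1.11 for Adora2a and 1.01 for Vdac1.

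Of the 8 genes, the 2 past 1.5-fold in IR over Control became 4 at 1.2-fold and 1 at 2-fold, and the 0 in IR+CBD over IR became 1 at 1.2-fold. A minimum of 50 UMIs gave 3 of 8 in IR over Control, with Gpr55 lower. Among pathway genes it gave 10 of 33, with 4 higher and 6 lower, in place of 6 of 26, with 4 higher and 2 lower. The share over all genes at that minimum is not given, so these counts are not set against it. Spearman's rho kept 4 of the 21 most like genes.

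The gate with the highest level was the same for 21 of 21 gene and library pairs without predicted doublets or with 1000 genes per cell, for 17 with doubled thresholds and for 15 among cells in exactly 1 gate. Of 147 levels in gates, 22, 95, 56 and 0 lay outside their intervals with doubled thresholds, in exactly 1 gate, without predicted doublets and with 1000 genes per cell. Depth limits Gpr55 everywhere and Adora2a and Faah in the Siglech and Retnlg gates. Each group is 1 library, so none of these settings replaces a replicate.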
